A study of Mus musculus with 9 samples.

Results

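Accessible chromatin at 7 genes of the BACH and NRF2 regulatory axis was examined in mouse peritoneal macrophages: Bach1, Bach2, Nfe2l2, Keap1, Hmox1, Mafg and Mafk. The members are the accessible regions called in the body of each gene and within 10 kb on each side, 57 regions of 36843 in all, at 7 of 21631 protein-coding genes. All 7 genes were found in the RefSeq annotation of GRCm38, and since they lie on 7 different chromosomes no region counts for more than 1 of them. The regions were selected on position alone, and the genes were chosen with their peak counts in these lists known, Bach2 above all, so the counts are a description and carry no test.

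ATAC-seq, which reads out open chromatin through the insertion of adapters by Tn5 transposase, was made from sorted macrophages of 9 mouse samples. Tissue-converted macrophages (3 samples) came from mice that received 2 ml of thioglycollate, a sterile irritant used to recruit monocytes to the peritoneum, and ate tamoxifen diet for 8 weeks. Tissue-resident macrophages (3 samples) have no treatment of their own in the labels. Monocyte-derived macrophages (3 samples) came from mice that received 2 ml of thioglycollate and were harvested on day 4. All mice received IL-4 complexes (5 µg of IL-4 with 25 µg of anti-IL4) every other day from 4 days before harvest, and all carried the alleles Cx3cr1CreERT2-IRES-EYFP/+ and Rosa26-stopfl-tdTomato/+, a tamoxifen-inducible Cre under Cx3cr1 control with a tdTomato reporter. Cell origin therefore differs together with thioglycollate and tamoxifen exposure, and these cannot be told apart. The labels do not say whether the samples of a group were separate mice.

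The axis is a switch between repression and activation at shared DNA elements. BACH1 and BACH2 are repressors and NRF2, the product of Nfe2l2, is an activator, and each binds antioxidant response elements and related sites as a heterodimer with a small MAF protein such as MAFG or MAFK. KEAP1 holds NRF2 in the cytoplasm and directs its ubiquitination until electrophiles or oxidants modify it, while heme binding makes BACH1 leave DNA and be degraded. Hmox1, which encodes heme oxygenase, is the textbook target of the switch, and macrophages use it to break down heme taken up with senescent red cells.

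Each group is represented by 1 merged peak list, so replicate spread and depth are both unknown, and the absence of a call does not show that a site was closed. The converted list held 15552 peaks, the resident list 24348 and the monocyte-derived list 33694. Merging peaks that overlapped gave 12953 regions called in converted, 20404 in resident and 31514 in monocyte-derived cells. Each peak carries a p-value from the authors' list, with a floor of 1e-12, which serves here to describe, rank and filter the peaks of its own list; sizes of p-values are not compared between lists. List length moved together with the counts below, and therefore the counts of the 7 genes and the sums of the pathway lists are also given with every list reduced to its 15552 peaks of smallest p-value, here called equal list lengths. Peaks with the same printed p-value, such as 3.02e-06 at Bach2 in the monocyte-derived list, fell on both sides of this cut. Counts at equal list lengths can therefore depend on how ties were ordered, which was not examined.

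The 7 genes held 15 regions in converted, 21 in resident and 53 in monocyte-derived macrophages. All 7 had fewer regions in converted than in monocyte-derived cells, 6 had fewer in resident than in monocyte-derived cells, and Mafk had 2 in the resident and 2 in the monocyte-derived list. Fewer regions were also the rule elsewhere. Of 13730 protein-coding genes with a region in any list, 71.3% had fewer in converted than in monocyte-derived cells and 55.2% had fewer in resident than in monocyte-derived cells; none of the 7 had more in converted or in resident than in monocyte-derived cells, as did 2.86% and 12% of all genes in these comparisons. The median of the 7 genes was -3 for converted minus monocyte-derived and -4 for resident minus monocyte-derived, against -1 over all genes in each comparison. Relative to list size, the 7 genes took 0.116% of converted regions (95% Wilson interval 0.0702 to 0.191%), 0.103% of resident regions (0.0673 to 0.157%) and 0.168% of monocyte-derived regions (0.129 to 0.220%). These intervals cover counting error over regions only, and they overlap. At equal list lengths the sums were 15 in converted, 12 in resident and 21 in monocyte-derived cells.

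**Figure D1:**
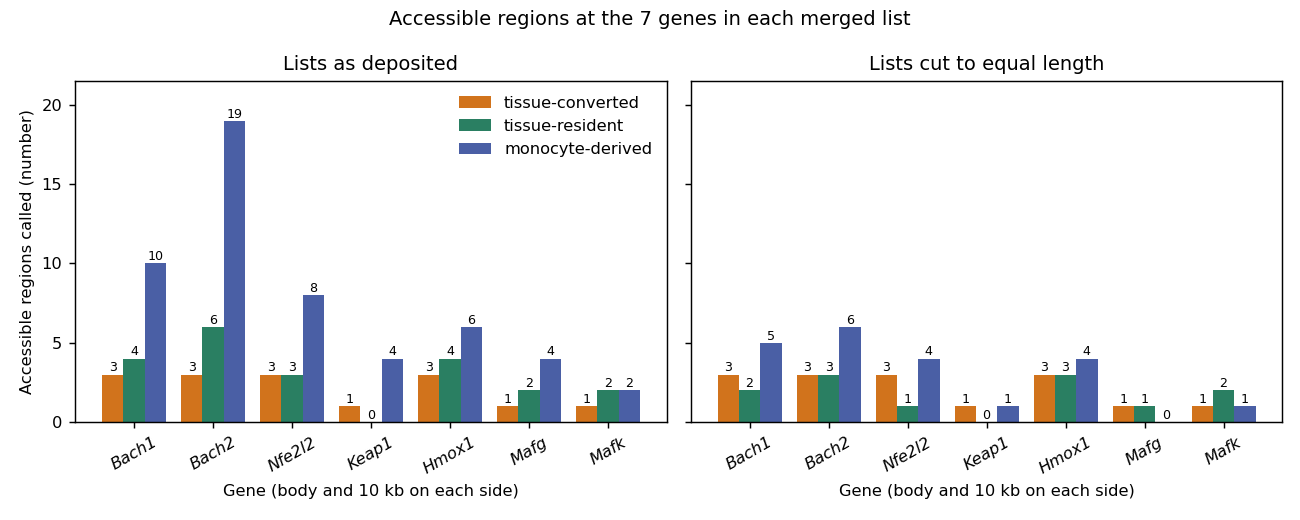
Bars give the number of accessible regions in the window of each gene, in the tissue-converted, tissue-resident and monocyte-derived lists, from the lists as deposited (left) and at equal list lengths (right). Bach2 had 3 converted, 6 resident and 19 monocyte-derived regions as deposited, and 3 converted, 3 resident and 6 monocyte-derived regions at equal list lengths; each bar is 1 merged list, so there are no error bars.

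Of the 57 regions, 32 (56.1%) were called in monocyte-derived cells alone, a class that made up 39.5% of all regions. All 3 lists called 11 (19.3%, against 28.1% of all regions). The resident and monocyte-derived lists shared a further 8 (14.04%, against 14.36% of all regions). The converted and monocyte-derived lists shared 2 (3.509%, against 3.561%), and the converted and resident lists none (against 1.941%). Converted-only regions numbered 2 (3.509%, against 1.547% of all regions), and resident-only regions also 2 (3.509%, against 10.98%). Of the 15 converted regions 11 (73.3%) were in all 3 lists, as were 80.0% of all converted regions. With the lists at equal length 26 of the 57 regions were left in no list, 12 were monocyte-derived only, 6 converted only and 2 resident only. A further 6 were in all 3 lists, 2 in converted and resident, 2 in resident and monocyte-derived, and 1 in converted and monocyte-derived. Shares over all regions are not given for this setting, so nothing is read from these counts.

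Promoter sequences show where the calls sit. RefSeq (GRCm38.p6) promoters were matched for 6 of the 7 genes; Hmox1 was not matched. The 250 bases before the listed start site are printed for the 4 genes whose promoter window was called, with matches to the core of the antioxidant response element (TGACNNNGC or, on the other strand, GCNNNGTCA) in capitals. The Bach1 sequence is chr16:87698704-87698953 (plus strand), Nfe2l2 is chr2:75704664-75704913 (minus strand), Mafk is chr5:139791286-139791535 (plus strand) and Mafg is chr11:120633548-120633797 (minus strand).
Bach1: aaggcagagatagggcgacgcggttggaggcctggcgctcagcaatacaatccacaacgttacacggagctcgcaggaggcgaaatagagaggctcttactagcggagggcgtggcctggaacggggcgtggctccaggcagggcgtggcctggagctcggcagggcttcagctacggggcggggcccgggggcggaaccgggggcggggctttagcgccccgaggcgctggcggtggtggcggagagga
Nfe2l2: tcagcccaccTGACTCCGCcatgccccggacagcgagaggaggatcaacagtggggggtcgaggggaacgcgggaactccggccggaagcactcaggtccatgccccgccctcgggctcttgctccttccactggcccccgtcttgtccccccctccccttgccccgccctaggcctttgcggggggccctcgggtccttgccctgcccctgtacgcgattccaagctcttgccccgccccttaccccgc
Mafk: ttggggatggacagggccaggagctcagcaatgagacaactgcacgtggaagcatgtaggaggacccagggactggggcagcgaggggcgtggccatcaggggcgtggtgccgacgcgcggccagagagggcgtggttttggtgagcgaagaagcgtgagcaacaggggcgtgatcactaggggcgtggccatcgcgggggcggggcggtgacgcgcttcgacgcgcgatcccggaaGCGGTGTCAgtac
Mafg: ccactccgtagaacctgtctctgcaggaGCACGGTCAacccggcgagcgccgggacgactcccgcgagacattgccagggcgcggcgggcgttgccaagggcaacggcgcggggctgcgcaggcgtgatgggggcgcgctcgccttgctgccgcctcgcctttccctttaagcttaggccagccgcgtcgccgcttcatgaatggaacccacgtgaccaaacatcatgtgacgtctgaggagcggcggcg

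Peaks covered the Bach1 sequence almost whole, with 250 of its 250 bases in converted, 240 in resident and 250 in monocyte-derived cells. Of the Nfe2l2 sequence 50 bases were covered in converted, 125 in resident and 125 in monocyte-derived cells, all next to the start site. In Mafk the covered bases numbered 175 in converted, 147 in resident and 250 in monocyte-derived cells, and in Mafg 75 in converted, 0 in resident and 200 in monocyte-derived cells. Thus 4 of the 6 matched promoters were called in converted, 3 in resident and 4 in monocyte-derived cells, where of 32619 promoter windows of 300 bases (250 before and 50 after each start) 18.9% were called in converted, 23.7% in resident and 28.8% in monocyte-derived cells. These windows, also the background of the motif shares below, outnumber the 21631 protein-coding genes counted elsewhere and were not filtered to them. The windows of Bach2 and Keap1 were called in none. For Bach2 the listed start lies 179.0 kb into the gene, and a region near its 5′ end was called in resident and monocyte-derived cells (below).

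Matches to the antioxidant response core occurred in the 300-base windows of Nfe2l2, Mafk and Mafg, 3 of 6, against 12.4% of all windows. The Mafk match lies 13 bases before the start site, inside a merged region to which all 3 lists contribute. Monocyte-derived peaks covered all 250 printed bases of Mafk and so the match. Converted peaks covered 175 of these bases and resident peaks 147, and whether they reached the match was not examined. The Mafg match, 222 bases before its start, overlaps the edge of a merged region of the converted and monocyte-derived lists. Monocyte-derived peaks covered 200 printed bases of Mafg, the whole width of that region, and converted peaks 75. Whether the converted peak reached the match was not examined. In Nfe2l2 the match begins 240 bases before the start and lies 107 bp from the nearest called region. The AP-1 core (TGANTCA, which reads the same on both strands and can overlap an antioxidant response core) was in none of the 6 windows and in 7.85% of all windows. A match describes letters and not a bound site.

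Bach1, the heme-sensing repressor gene (chr16:87698954-87733346, gene ID 12013), had 3 converted, 4 resident and 10 monocyte-derived regions. The 3 converted regions were in all 3 lists. The first, chr16:87698689-87699088, spans the start site and stood at the p-value floor of 1e-12 in every list, and the second, chr16:87699114-87699238, lies just inside the gene. The third, chr16:87713064-87713288, is 14.1 kb into the gene, with a p-value of 3.00e-06 in the converted, 1.05e-05 in the resident and 3.36e-06 in the monocyte-derived list. A further 7 regions were monocyte-derived only. Among them chr16:87724839-87725088, a 250 bp region 25.9 kb into the gene, stood at the floor, and a group of 3 lay 9.4 to 9.9 kb outside the gene before its start. The 1 resident-only region, chr16:87700089-87700188, had a p-value of 1.18e-05. With equal list lengths Bach1 had 3 converted, 2 resident and 5 monocyte-derived regions, and the intragenic region at the floor was still monocyte-derived only. The promoter call was thus common to the 3 groups, and of the 8 regions called in 1 list only 7 lay farther than 1 kb from a gene end. Of all 36843 regions, 37.1% lay within 1 kb of a gene end. The share among all regions called in 1 list only is not given, so nothing is read from that count.

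Bach2, a repressor known for its roles in B and T lymphocytes (chr4:32238413-32586109, gene ID 12014), had 3 converted, 6 resident and 19 monocyte-derived regions. These were the most of the 7 genes in the resident and monocyte-derived lists, while in the converted list Bach1, Nfe2l2 and Hmox1 also had 3. Its body of 347.7 kb is also the longest, and per 100 kb of window its monocyte-derived regions were the sparsest, at 5.17, against 6.43 to 22.2 in the other 6 genes. The monocyte-derived regions were spread along the gene in groups. Near the lower-coordinate end of the gene, which is its 5′ side, chr4:32238564-32238763 was called in resident and monocyte-derived cells, chr4:32239314-32239488 in monocyte-derived cells only, and chr4:32239914-32239988 in resident cells only. From 11.4 to 12.9 kb into the gene a group of 4 monocyte-derived regions followed, of which the last, chr4:32250964-32251313, stood at the floor of 1e-12 in monocyte-derived cells and had a p-value of 8.27e-06 in resident cells. In that group the converted list had no call.

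Farther along, 5 monocyte-derived regions lay 113.6 to 135.0 kb into the gene. The only Bach2 region of all 3 lists was among them, chr4:32358639-32358913, with p-values of 6.74e-06 in converted, 5.06e-06 in resident and 6.73e-06 in monocyte-derived cells. A group of 3 followed at 166.9 to 167.9 kb, of which chr4:32406089-32406288 was shared with resident cells, and it lies 11.1 kb before the start site that the RefSeq promoter table lists for Bach2 (chr4:32417435). The next 155.5 kb of the gene, which include that start site, held no region in any list. Both other converted regions were in the last part of the gene. The first, chr4:32561789-32561863, was converted only, and chr4:32565014-32565163 had a p-value of 2.24e-08 in converted cells and 1.01e-05 in monocyte-derived cells. Of the 19 monocyte-derived regions 2 were also called in converted cells (10.5%, 95% Wilson interval 2.94 to 31.4%) and 5 in resident cells (26.3%, 11.8 to 48.8%). Of all monocyte-derived regions 37.0% were called in converted and 49.6% in resident cells. Bach2 was chosen with its counts known and its regions are not replicates, so these intervals cover counting error only and test nothing.

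Bach2 had the largest difference in counts among the 7 genes in each comparison, and this difference was smaller in lists of equal length. There it had 3 converted, 3 resident and 6 monocyte-derived regions, and with p at most 1e-10 in every list it had none in converted, none in resident and 1 in monocyte-derived cells, the floor-level region 12.6 kb into the gene.

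**Figure D2:**
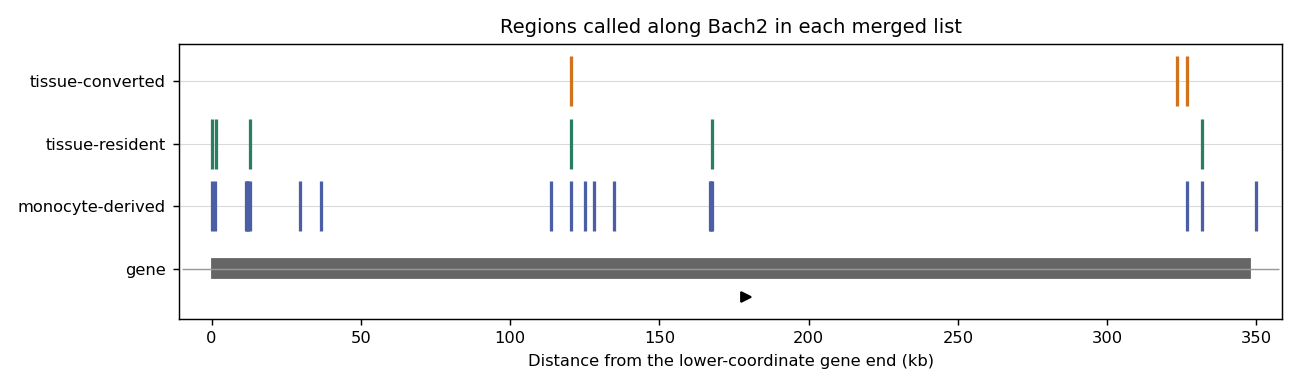
Ticks mark the midpoints of regions along Bach2 and 10 kb on each side in the tissue-converted, tissue-resident and monocyte-derived lists, against distance from the lower-coordinate gene end in kb; the grey bar is the gene body and the arrowhead the start site listed by RefSeq. Most of the 19 monocyte-derived regions form groups before the gap of 155.5 kb, where the converted list has 1 call, at 120.2 kb.

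Nfe2l2, which encodes NRF2 (chr2:75675513-75704663, gene ID 18024), had 3 converted, 3 resident and 8 monocyte-derived regions. The 3 regions were the same in converted and resident cells, and all were also monocyte-derived. The largest, chr2:75704364-75704788, spans the start site, is 425 bp wide and stood at the floor in every list. A second, chr2:75703989-75704163, lies 500 bp from that gene end. The third, chr2:75685464-75685738, is inside the gene 10.0 kb from the opposite end, with p-values of 5.61e-06 in converted, 8.27e-06 in resident and 1.03e-10 in monocyte-derived cells. The remaining 5 were monocyte-derived only, 3 of them 325 to 1050 bp from the gene end with the start site and interleaved with the shared calls, so that 5 monocyte-derived regions crowd that end of the gene. Narrow gaps separate these 5, so their number depends on how calls are joined. With peaks within 200 bp merged Nfe2l2 had 2 converted, 2 resident and 4 monocyte-derived regions. Lists of equal length gave 3 in converted, 1 in resident and 4 in monocyte-derived cells.

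Keap1, the gene of the NRF2 inhibitor (chr9:21229730-21239332, gene ID 50868), had 1 converted, 0 resident and 4 monocyte-derived regions, and no region was shared between lists. It was the only one of the 7 genes with no resident region. The share of all genes with no resident region is not given here, so nothing is read from that. Inside the gene lay a single region, chr9:21238739-21238813, which was 75 bp wide, 519 bp from the gene end with the start site, and monocyte-derived only (p = 4.13e-06 in the authors' list). The other 3 monocyte-derived regions lay 4.4 to 8.9 kb outside the opposite end, 2 of them in a window shared with Pde4a, a phosphodiesterase gene. The converted region, chr9:21248389-21248513, lies at the end of the neighbouring gene S1pr5, a sphingosine-1-phosphate receptor gene, 9.1 kb from Keap1. It is the 1 region behind the only case among the 7 of more regions in converted than in resident cells, a direction found in 7% of all genes. In lists of equal length Keap1 had 1 converted, 0 resident and 1 monocyte-derived region.

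Hmox1, the heme oxygenase gene (chr8:75093618-75100593, gene ID 15368), had 3 converted, 4 resident and 6 monocyte-derived regions, and every converted or resident region was also monocyte-derived. Mouse Hmox1 is known to have distal enhancers with several antioxidant response elements; their positions were not part of the annotation used, so no region is assigned to them. The region across the lower-coordinate gene end, chr8:75093439-75093788, was in all 3 lists, with a p-value of 4.87e-06 in converted, 1.85e-07 in resident and 1e-12, the floor, in monocyte-derived cells. Outside that end lay chr8:75086089-75086338, also in all 3 lists, with a p-value of 3.70e-07 in the converted, 5.63e-06 in the resident and 3.55e-06 in the monocyte-derived list. Flanking it were a pair of monocyte-derived-only regions, chr8:75083839-75084088, 9.5 kb outside the gene, and chr8:75089564-75089788, 3.8 kb outside it. Both stayed monocyte-derived only at equal list lengths, where the counts were 3 in converted, 3 in resident and 4 in monocyte-derived cells. The last 2 of the 6 regions lie 8.0 and 8.7 kb beyond the other end, next to and in Mcm5, a replicative helicase subunit gene, and chr8:75109264-75109613 in Mcm5 stood at the floor in every list. Of the monocyte-derived regions at Hmox1 3 of 6 were called in converted cells (50.0%, 18.8 to 81.2%) and 4 of 6 in resident cells (66.7%, 30.0 to 90.3%), intervals that include the shares of all regions.

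Mafg and Mafk encode small MAF proteins, which lack a transactivation domain and serve as partners of BACH and NRF2. Mafg (chr11:120625117-120634955, gene ID 17134) had 1 converted, 2 resident and 4 monocyte-derived regions. Its promoter region, chr11:120633564-120633763, was called in converted (p = 4.70e-06 in the authors' list) and monocyte-derived cells (3.36e-06) and not in resident cells. Its resident regions each lay across a gene end of neighbouring genes, chr11:120617864-120618013 in Pcyt2, a phosphatidylethanolamine synthesis gene, and chr11:120643689-120643838 in Pycr1, a proline synthesis gene, and both were shared with monocyte-derived cells. With lists of equal length Mafg had 1 converted, 1 resident and 0 monocyte-derived regions, so that the direction against monocyte-derived cells turned in both comparisons. Mafk (chr5:139791536-139802653, gene ID 17135) had 1 converted, 2 resident and 2 monocyte-derived regions. Its start site region, chr5:139791239-139791588, was in all 3 lists, with p-values of 1.51e-06 in converted, 6.37e-06 in resident and 1e-12 in monocyte-derived cells, and chr5:139793514-139793613 inside the gene was shared by resident and monocyte-derived cells. Mafk had 1 converted, 2 resident and 1 monocyte-derived region in lists of equal length, so that resident then exceeded monocyte-derived.

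**Figure D3:**
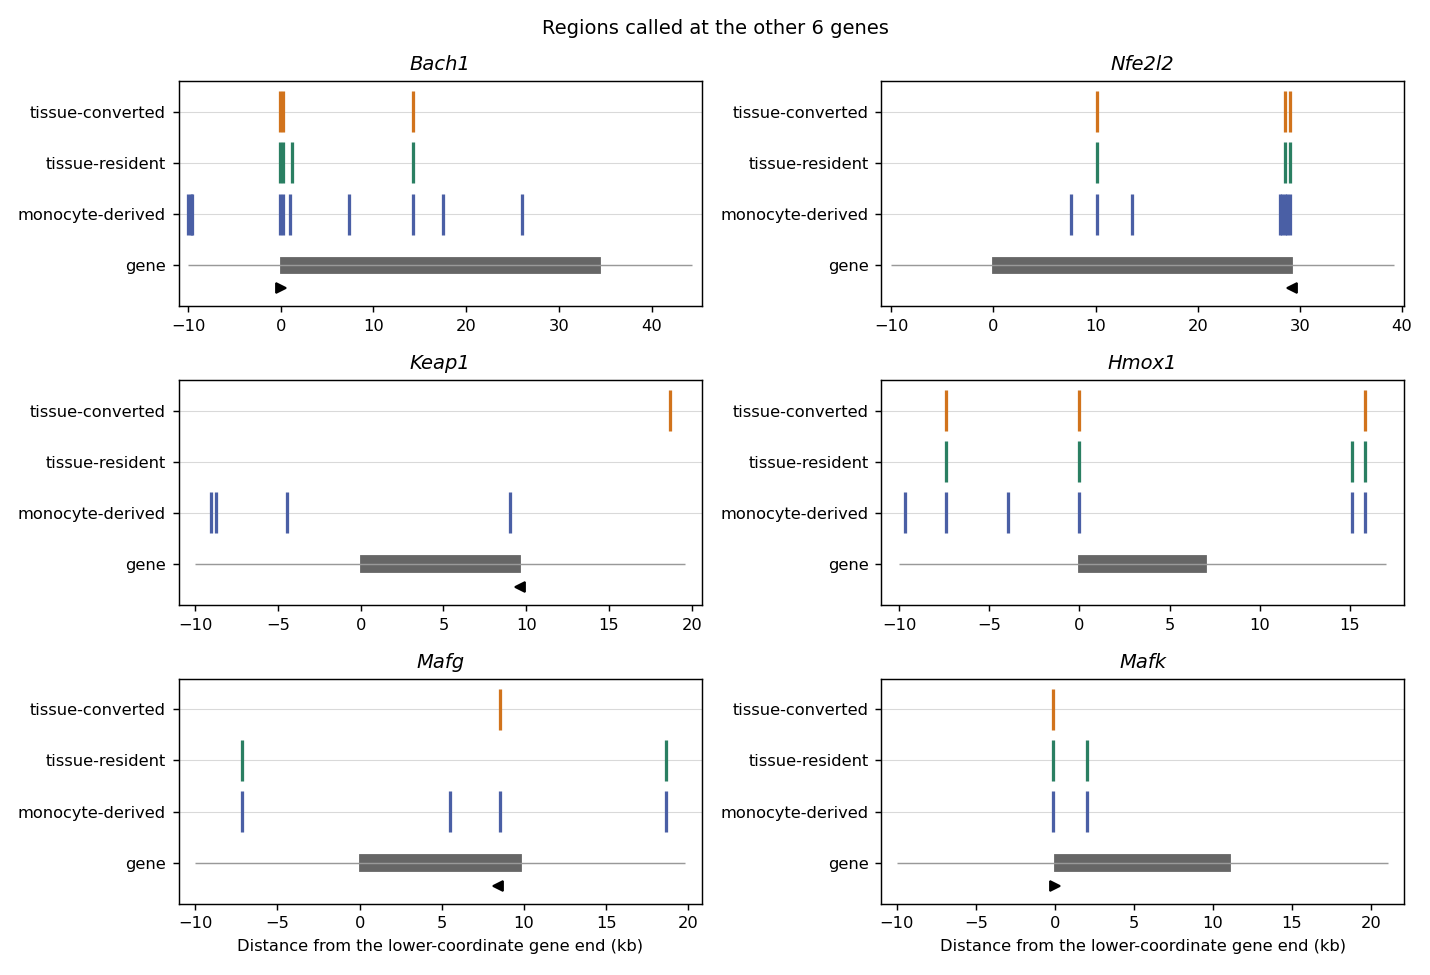
Ticks mark the midpoints of regions at Bach1, Nfe2l2, Keap1, Hmox1, Mafg and Mafk in the tissue-converted, tissue-resident and monocyte-derived lists, against distance from the lower-coordinate gene end in kb; grey bars are gene bodies and arrowheads the start sites that RefSeq lists (Hmox1 was not matched). Each tick is drawn at the midpoint of the merged region, so the ticks of a shared region line up by construction. Regions of all 3 lists lie at the gene start of Bach1, Nfe2l2 and Mafk and at the lower-coordinate end of Hmox1. At Keap1 no region is shared between lists.

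Position went together with sharing in the lists as deposited; these shares and the promoter coverage were not recomputed for lists of equal length. Of the monocyte-derived regions of the 7 genes, 16 lay within 1 kb of a protein-coding gene end, and of these 7 were called in converted cells (43.8%, 23.1 to 66.8%) and 11 in resident cells (68.8%, 44.4 to 85.8%). Over all monocyte-derived regions near a gene end the shares were 53.2% in converted and 67.1% in resident cells. Farther than 1 kb from a gene end lay 37, of which 6 were called in converted (16.2%, 7.65 to 31.1%) and 8 in resident cells (21.6%, 11.4 to 37.2%), and of all such regions 26.7% were called in converted and 38.5% in resident cells. The interval of the resident share away from gene ends lies below the value over all regions and the other 3 include theirs, which is a description of genes chosen with their counts known. Regions near a gene end made up 53.3% of the converted, 52.4% of the resident and 30.2% of the monocyte-derived regions of the 7 genes, and over all regions 53.0% of the converted, 46.4% of the resident and 39.1% of the monocyte-derived list. Median region width over the 7 genes equalled that of all regions, at 175 bp.

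Bach1, Bach2 and Nfe2l2 had the largest differences from monocyte-derived cells among the 7 genes. These 3 had at least 5 fewer regions in converted than in monocyte-derived cells, as did 5.31% of all genes, and at least 5 fewer in resident than in monocyte-derived cells, as did 2.88%. Because their counts were known when the genes were chosen, nothing is read from that. With peaks within 200 bp merged only Bach1 and Bach2 had at least 5 fewer in either comparison, with no flank only Bach2 and Nfe2l2, and at equal list lengths or with p at most 1e-10 none of the 7. Only 13 of the 21631 genes had as many as 19 monocyte-derived regions. Bach2 was 1 of 3 among them with at most 3 converted regions and the only one with at most 6 resident regions. These cutoffs are the counts of Bach2 itself, which was chosen with them known, and window length was not taken into account. Its place is therefore a description only. For Hmox1, 1158 genes had at least its 6 monocyte-derived regions, and 791 of these had at most its 3 converted regions. Between converted and resident cells 5 of the 7 genes had fewer regions in converted, as did 46% of all genes, and no difference exceeded 3 regions.

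**Figure D4:**
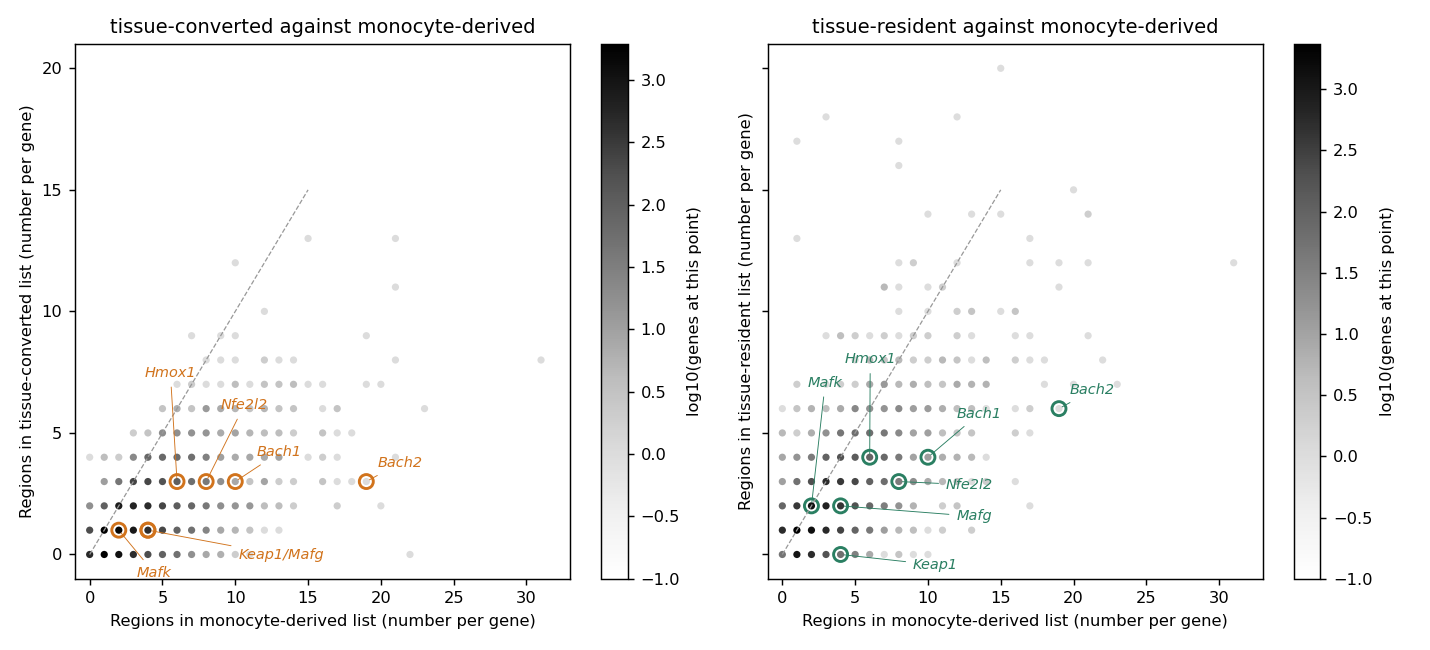
Each grey point is a pair of region counts, shaded by how many genes share it (log10 scale), with the monocyte-derived list on the x axis and the tissue-converted (left) or tissue-resident list (right) on the y axis; circles mark the 7 genes and the dashed line equal counts. The 7 circles lie on or below the line, as most genes do, with Bach2 the farthest; 1 gene with 81 converted, 140 resident and 105 monocyte-derived regions is beyond the axes.

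Other genes of the pathway were described from lists chosen with earlier results known. Their shares of lower and higher genes are to be read beside those of all genes with a region, of which 71.3% were lower and 2.86% higher in converted and 55.2% were lower and 12% higher in resident than in monocyte-derived cells, with a median of -1 in each comparison. The remaining CNC factors and small MAFs (4 genes) held 5 converted, 11 resident and 11 monocyte-derived regions. Nfe2, a CNC factor gene of the erythroid and megakaryocyte lineages, had 4 converted, 5 resident and 4 monocyte-derived regions, and Nfe2l1, which encodes the related factor NRF1, had 1 converted, 3 resident and 5 monocyte-derived regions. Maff, the gene of the third small MAF, had 0 converted, 2 resident and 2 monocyte-derived regions. Against monocyte-derived cells 2 of the 4 had fewer regions in converted and 1 had fewer and 2 had more in resident cells, with medians of -1 in converted and 0.5 in resident cells.

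Genes that act on NRF2 turnover (7) held 8 converted, 11 resident and 19 monocyte-derived regions, with 5 of 7 lower in converted and 4 of 7 lower in resident than in monocyte-derived cells and none higher. Gsk3b, a kinase gene, had 2 converted, 4 resident and 7 monocyte-derived regions, while Cul3, the ubiquitin ligase scaffold that KEAP1 recruits, had 2 converted, 2 resident and 3 monocyte-derived regions, and Palb2, a DNA repair gene whose product binds KEAP1, had 2 in each list. Antioxidant and NADPH-producing targets of NRF2 (18 genes) held 27 converted, 42 resident and 62 monocyte-derived regions. Of these 13 were lower in converted than in monocyte-derived cells and none higher, and 9 were lower and 3 higher in resident than in monocyte-derived cells. Me1, the malic enzyme gene, had 4 converted, 9 resident and 6 monocyte-derived regions, Slc7a11, the cystine transporter gene, had 3 converted, 7 resident and 7 monocyte-derived, and Txn1, the thioredoxin gene, had 2 converted, 2 resident and 8 monocyte-derived regions. The median difference from monocyte-derived cells was -1 in converted and -1 in resident cells for this list and for the turnover list, as over all genes.

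Heme synthesis genes (8) held 10 converted, 17 resident and 23 monocyte-derived regions, with 6 of 8 lower in converted than in monocyte-derived cells and 5 lower and 1 higher in resident than in monocyte-derived cells. Alad, an early enzyme of the pathway, had 2 converted, 4 resident and 5 monocyte-derived regions, and Uros had 3 in each list. Heme and iron handling genes (20) held 18 converted, 30 resident and 49 monocyte-derived regions, with 13 of 20 lower in converted than in monocyte-derived cells and none higher, and 11 lower and 1 higher in resident than in monocyte-derived cells. Blvrb, a biliverdin reductase gene, had 4 regions in each list, whereas Slc11a1, the phagosomal metal transporter NRAMP1, had 1 converted, 4 resident and 7 monocyte-derived regions, and Abcb6, a porphyrin transporter gene, had 2 converted, 3 resident and 5 monocyte-derived regions. Nqo1, Hpx and Spic, the last a factor of heme-induced red pulp macrophages, had no region in any list and were singled out after their values were seen. The median difference from monocyte-derived cells was -1.5 in converted and -1 in resident cells for heme synthesis, and -1 in each for heme and iron handling. Over all genes it was -1 in each comparison. The all-gene shares of 71.3% lower in converted and 55.2% lower in resident cover genes with a region, which were 18 of the 20 in heme and iron handling.

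The pathway sums moved with list length. At equal list lengths the remaining CNC factors and small MAFs held 5 converted, 9 resident and 8 monocyte-derived regions, turnover genes 8 converted, 9 resident and 12 monocyte-derived, and antioxidant and NADPH targets 27 converted, 25 resident and 31 monocyte-derived. Heme synthesis genes then held 11 converted, 10 resident and 7 monocyte-derived regions, with 1 gene lower and 3 higher in converted, and 1 lower and 3 higher in resident, than in monocyte-derived cells, so the direction turned; the converted peaks are the same as before, and their regions differ by 1 because peaks of the other lists no longer join them. Heme and iron handling genes held 18 converted, 23 resident and 20 monocyte-derived regions, with 3 lower and 3 higher in converted and 4 lower and 5 higher in resident than in monocyte-derived cells. Over all 12250 genes with a region at equal list lengths, 33.9% were lower and 23.4% higher in converted, and 35.0% lower and 28.6% higher in resident, than in monocyte-derived cells.

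Because Bach2 is a lymphocyte gene, markers of other cells were counted beside it. B cell markers (10 genes) held 2 converted, 4 resident and 8 monocyte-derived regions, and T cell markers (10 genes) held 2 converted, 3 resident and 7 monocyte-derived regions. The defining B cell genes Ms4a1, Pax5, Cd22 and Blk, and the T cell genes Cd3e, Cd4, Cd8a, Cd28 and Tcf7, had no region in any list. In each of these marker lists 5 of 10 genes had a region in any list, and of all 21631 protein-coding genes 13730 had one. Absence of a region was thus common among all genes, and nothing is read from it. B cell markers with a region included Cd79a (2 converted, 1 resident and 2 monocyte-derived), Fcrla (0 converted, 1 resident and 4 monocyte-derived) and Vpreb3 (0 converted, 1 resident and 1 monocyte-derived). Those of T cells included Il7r (1 converted, 2 resident and 2 monocyte-derived), Lck (1 in each list) and Cd3g (0 converted, 0 resident and 2 monocyte-derived). Macrophage markers (10 genes) held 8 converted, 19 resident and 27 monocyte-derived regions, with a region at 5 of 10 genes in converted and at 10 of 10 in resident and monocyte-derived cells. The shares of all genes with a region in each single list are not given here. Cd68, a lysosomal macrophage marker gene, had 2 converted, 2 resident and 4 monocyte-derived, and Cd14 had 2 converted, 2 resident and 3 monocyte-derived regions. Adgre1, Itgam, Spi1, Mertk and Fcgr1, singled out after their values were seen, had no converted region. In lists of equal length B cell markers held 2 converted, 3 resident and 5 monocyte-derived regions, T cell markers 2 converted, 3 resident and 2 monocyte-derived, and macrophage markers 8 converted, 11 resident and 12 monocyte-derived. Any part of other cells in the Bach2 counts was not tested.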

How the data were processed

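ATAC-seq of 9 samples in 3 groups of 3 was deposited as 1 merged peak list per group, which the labels credit to all samples of that group. Bowtie2 2.2.9 and the build mm10 (GRCm38) are named per the submitters' processing notes. Peak caller, read shift, duplicate handling and the merging of replicates: not given in the sources used here. The value deposited for each peak is a p-value; 5476 resident, 1267 monocyte-derived and 0 converted p-values lie above 1e-05, although the name of every list carries that value, so a common threshold is not known.

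Peaks sharing 1 bp or more were joined to regions, and regions in gene bodies (RefSeq GRCm38.p6 table, the build of the lists) and 10 kb on each side were counted. A gene's difference is its number of regions in 1 list minus that in another. With no replicate values there is no test between groups. Wilson intervals (95%) cover counting error only. RefSeq promoter sequences were searched on both strands. Of the 15 regions outside gene bodies 9 lay 8.7 to 9.9 kb from their gene, just inside the window limit, and the first regions beyond the 7 windows lay 15.6 to 221.7 kb away.

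The members and lists were chosen with earlier results of these data known. Genes named from the lists are the 3 in each with the largest sum of the converted, resident and monocyte-derived counts, in which a shared region counts for each list that calls it, and markers with none; some of these genes are not reported here. The counting was tested on simulated data and recovered every planted count. Strand and start sites came from the promoter table, exons and the genome sequence were not used here, and RNA-seq was not analysed here. Alternatives were p at most 1e-05 or 1e-10, equal list lengths, a shared 50% of the shorter peak, merging within 200 bp, no flank, 50 kb flanks, and the nearest gene end. Python 3.11.15, numpy 2.4.6, pandas 2.3.3, scipy 1.17.1 and matplotlib 3.10.9 were used.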

Additional observations from a re-analysis of the deposited data

How the results depend on the processing

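No paired analysis was possible because the lists are merged over replicates, which also bars leaving out a replicate. Depth is unknown and limits every absence of a call. Summed over the 7 genes, the differences were -38 for converted minus monocyte-derived, -32 for resident minus monocyte-derived and -6 for converted minus resident. In lists of equal length converted minus monocyte-derived was -6, resident minus monocyte-derived -9 and converted minus resident 3, its direction turned. With p at most 1e-10, which leaves few peaks, converted minus monocyte-derived was -4, resident minus monocyte-derived -4 and converted minus resident 0. Converted minus resident was -1 with p at most 1e-05 and -12 with 50 kb on each side. The number of genes with fewer regions in converted than in monocyte-derived cells was 7 as reported, 4 at equal list lengths and 4 with p at most 1e-10. For resident against monocyte-derived cells it was 6, 5 and 4 in these settings. Fewer in converted than in resident cells were 5 genes as reported, 3 with p at most 1e-05, 0 with p at most 1e-10, 1 at equal list lengths and 3 with no flank. Over all genes with a region the 3 shares were 71.3%, 55.2% and 46% as reported. At equal list lengths they were 33.9%, 35.0% and 29.6%, and for the other settings they are not given. Of the 21 pairs of gene and list, 20 had a region as reported and 11 with p at most 1e-10. The shares of all genes with a region in each list are not given, so nothing is read from these counts. Fewer peaks enter under stricter p-values and equal lengths; otherwise the cause was not tested. Of 168 differences of single genes 99 stayed within 1.5 times, 63 moved by more, 24 of them to 0, and 6 turned direction. Hmox1 had a difference of 0 in every comparison with no flank, and Keap1 and Mafk had 0 for converted minus monocyte-derived at equal list lengths. Bach1 had a difference of 1 for converted minus resident with p at most 1e-05 and at equal list lengths. Mafg had 1 for converted and 1 for resident minus monocyte-derived at equal list lengths, and 1 for converted minus resident with no flank and by nearest gene end. The overlap of 50%, merging within 200 bp, and nearest gene end moved none of the sums by over 1.5 times.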
